A study of Mus musculus with 10 samples.

Results

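The comparison described here sets mouse hepatocytes collected at ZT6 against those collected at ZT0, across genes, that is the change over the early part of the light phase. It used 5 of the 10 libraries of the series: the 3 at ZT0 (A, B and C) and the 2 at ZT6 (A and B), taken from the sample titles. Hepatocytes make up most of the liver's mass, and zeitgeber time (ZT) counts hours from lights on. The unique molecular identifiers (UMIs, counts of distinct tagged molecules) of all cells of a library were summed, and 1 sum was 1 replicate (n = 3 and n = 2). The study profiled single cells at 4 times of day with the 10x Chromium 3' kit, version 2.

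The labels set ZT0 and ZT6 apart by the hour of collection, and the index numbers of the libraries also differ. All animals were C57BL/6 males, 3 months old and fed regular chow at will, with no engineered allele named. All were anaesthetised with ketamine and xylazine, and hepatocytes were isolated by collagenase perfusion and a Percoll gradient. Neither the number of mice behind a library nor whether libraries came from separate mice is in the labels, so the p-values measure the spread between libraries, which may be technical.

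The ZT0 libraries held 1795 to 2860 cells and 5729487 to 6728285 UMIs, and the ZT6 libraries held 2420 and 1439 cells and 4922234 and 2588441 UMIs, so low genes carried the most counting error in ZT6B. The summed level of 10 hepatocyte markers was 69207 to 91315 CPM (UMIs scaled to the same library total) at ZT0 and 80130.1 and 80226 at ZT6. Of 8 macrophage markers, Clec4f, Csf1r, C1qa and C1qb were at 0 in both groups, and the list summed to 1.78 to 6.46 CPM at ZT0 and 1.16 to 4.27 at ZT6. The 8 pericentral landmark genes summed to 6757 CPM in ZT0B and 15278 in ZT0C, with the ZT6 libraries between them (7823 and 9035). Across 4310 genes, the log CPM of ZT0B correlated more closely with ZT6A (r = 0.970) and ZT6B (r = 0.961) than with ZT0A (r = 0.937) or ZT0C (r = 0.948), a description over genes that share these libraries. The labels give ZT0B and both ZT6 libraries a 10x index ending in 7, ZT0A one ending in 3 and ZT0C one ending in 5. Values from ZT0B alone against ZT6A and ZT6B are therefore given beside the results they change. The files number the cells, so barcodes shared between libraries were not counted.

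Many liver genes follow a daily cycle that is set by a clock in each cell and by the daily round of feeding and fasting. Mice feed mainly in the dark, so the early light phase is the passage from the fed to the fasted state. In the clock, BMAL1 (encoded by Arntl) and CLOCK activate genes through E-box sequences. Among those genes are the Period, Cryptochrome and REV-ERB repressors, which in turn shut the activators off.

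Of 8908 genes that averaged 3 CPM or more, 103 (1.16%) passed the threshold of 0.05 on the adjusted p (quasi-likelihood test of edgeR, adjusted by Benjamini and Hochberg's method). Of these, 57 (0.640%) were higher at ZT6 and 46 (0.516%) were lower. Among the largest changes were those of clock genes, of some cytosolic and endoplasmic reticulum chaperones, and of single genes of choline, sterol and glycogen metabolism. All 103 genes had both ZT6 libraries beyond all 3 ZT0 libraries, which was the case for 3033 genes (34.0%) in all. The median change of the 103 was 2.80-fold, and 29 changed at least 4-fold. At an unadjusted p under 0.05 there were 1195 genes (13.4%). DESeq2 called 155 of the 8908 genes and limma-voom 66, each at an adjusted p under 0.05. Every test was fitted over all 10 libraries of the series, so ZT12 and ZT18 libraries entered the estimate of the spread. Without ZT6A 26 genes passed and without ZT6B 23, where the lone ZT6 library is taken to vary as libraries of other times do. Without ZT0B 212 passed. With ZT0B as the only ZT0 library, 50 of 8926 genes (0.560%) passed, 37 of them among the 103. With the last number of the index as a block, 135 (1.52%) passed, 72 of them among the 103. In sums over cells, fewer cells with a transcript and fewer transcripts per cell cannot be told apart.

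**Figure D1:**
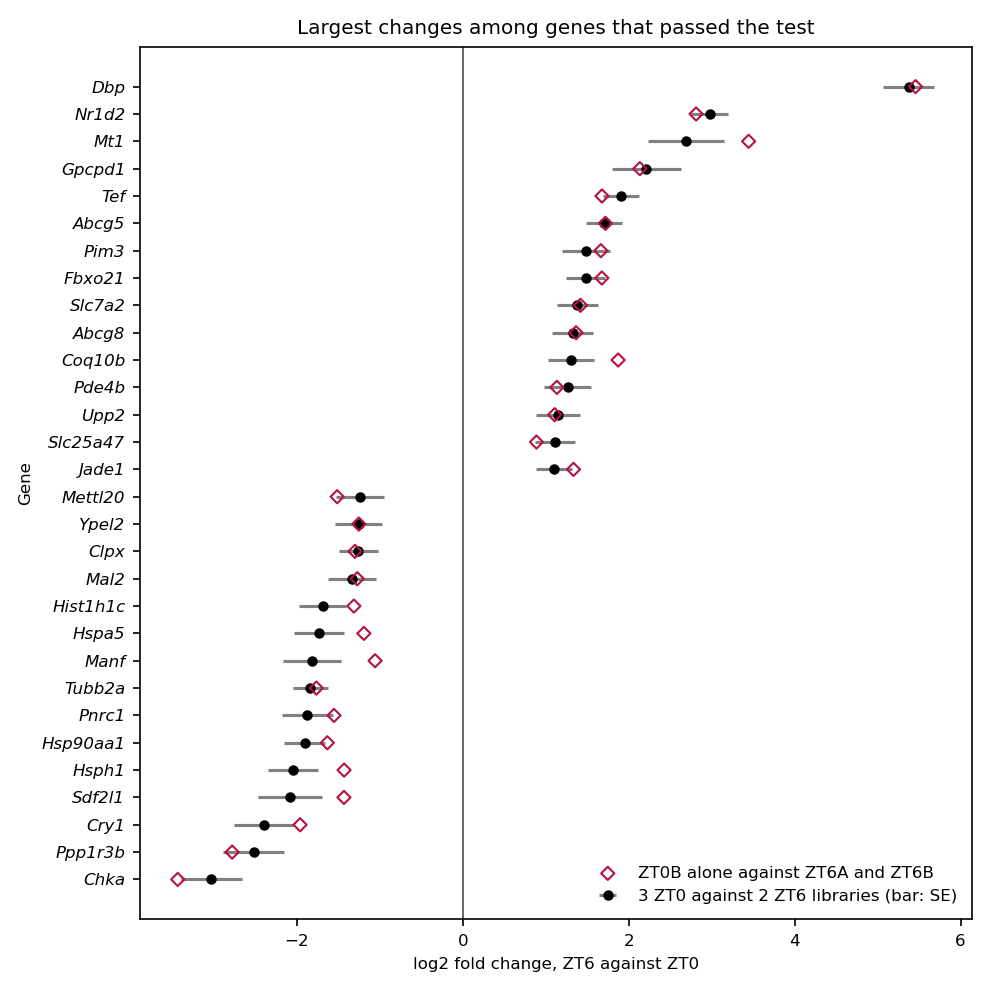
The 15 largest increases and 15 largest decreases among genes that passed the test and averaged at least 20 CPM. Black points give the log2 fold change at ZT6 against ZT0 with its standard error, and open diamonds the value with ZT0B as the only ZT0 library. Dbp, at 5.37, lies apart from the others, and every diamond is on the same side of 0 as its point.

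Clock genes changed in both directions. Of 24 tested genes of 3 clock lists (activators, repressors and outputs), 7 were higher at ZT6 and 3 were lower, and 18 had groups that did not overlap, which 34.0% of all genes had. Dbp, Tef and both REV-ERB genes rose, and the activator Arntl fell. These lists were written knowing earlier results of these data, so their direction is no independent evidence. The share that passed, 41.7%, stands beside 1.16% of all genes.

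Dbp encodes a PAR bZIP transcription factor that carries the clock's phase to metabolic genes. Its level was 3.35, 2.63 and 2.47 CPM in the ZT0 libraries (A, B and C, the order used throughout) and 105 and 130.2 CPM in ZT6A and ZT6B. The groups were far apart, and Dbp rose by 5.37 ± 0.31 (log2 fold change ± standard error), or 41.4-fold (edgeR adjusted p = 3.68e-08), the largest increase of all genes tested. Tef, a PAR bZIP factor of the same family, measured 16.6, 19.99 and 14.5 CPM at ZT0 and 66.6 and 61.3 at ZT6. It rose by 1.91 ± 0.22 (edgeR adjusted p = 0.000157). Hlf, also of that family, measured 45.97, 41.4 and 57.7 CPM against 58.2 and 59.4, and its log2 difference of 0.28 ± 0.21 did not pass the test (edgeR adjusted p = 0.598).

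Nr1d1 and Nr1d2 encode REV-ERBα and REV-ERBβ, nuclear receptors that repress Arntl. Nr1d1 was near the detection limit at ZT0, with 0.789, 2.01 and 2.47 CPM (4, 13 and 15 UMIs), and measured 37.7 and 25.3 CPM at ZT6. It rose by 4.12 ± 0.42 (edgeR adjusted p = 0.000157). Nr1d2 measured 7.50, 8.21 and 6.27 CPM at ZT0 and 54.8 and 61.3 at ZT6. The 5 values fell in 2 tight groups, and Nr1d2 rose by 2.98 ± 0.23 (edgeR adjusted p = 1.30e-06).

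Among the repressors that act on BMAL1 and CLOCK directly, Per3 measured 1.97, 2.63 and 1.98 CPM at ZT0 and 14.5 and 12.7 at ZT6, a rise of 2.62 ± 0.30 (edgeR adjusted p = 0.000157). Per1 measured 5.72, 2.01 and 3.13 CPM against 8.13 and 14.6. It rose by 1.62 ± 0.38 at the margin of the threshold (edgeR adjusted p = 0.0494), with ZT6B well above ZT6A. Ciart, whose product is known as CHRONO, had 4, 4 and 0 UMIs in the ZT0 libraries and 23 and 21 at ZT6, or 0.789, 0.620 and 0 CPM against 4.45 and 8.31. Its fitted log2 difference of 3.65 ± 0.65 (edgeR adjusted p = 0.013) rests on few molecules at ZT0. Cry1 went the other way, from 44.8, 29.6 and 45.7 CPM at ZT0 to 8.71 and 5.94 at ZT6. It fell by 2.40 ± 0.36 (edgeR adjusted p = 0.0033). Cry2 measured 12.6, 20.5 and 10.9 CPM at ZT0 and 30.2 and 31.7 at ZT6, a log2 difference of 1.07 ± 0.25 that narrowly missed the threshold (edgeR adjusted p = 0.0525).

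Arntl measured 21.5, 14.1 and 29.5 CPM at ZT0 and 2.13 and 1.58 at ZT6. It fell by 3.47 ± 0.44 (edgeR adjusted p = 0.00051), or 11.1-fold, and all ZT0 values lay well above both ZT6 values. Its partner Clock measured 46.6, 46.8 and 48.5 CPM at ZT0 and 30.96 and 28.5 at ZT6. The groups did not overlap, but the log2 difference of -0.67 ± 0.24 did not pass the test (edgeR adjusted p = 0.226). Rora, which encodes a nuclear receptor that opposes REV-ERB at Arntl, measured 108, 132 and 122 CPM against 103 and 105, a log2 difference of -0.21 ± 0.21 (edgeR adjusted p = 0.704).

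Several other clock genes did not pass. Per2 spanned 16.97, 3.87 and 5.77 CPM at ZT0, with ZT0A alone high, and 7.16 and 7.52 at ZT6. Its log2 difference of -0.25 ± 0.57 (edgeR adjusted p = 0.895) was 0.91 with ZT0B as the only ZT0 library, so its direction is not settled. Usp2, a deubiquitinase driven by the clock, measured 8.68, 3.41 and 5.28 CPM against 11.2 and 18.2 (1.33 ± 0.34; edgeR adjusted p = 0.0732). Nfil3, a repressor that binds the same D-box sites as Dbp, measured 32.6, 43.2 and 41.6 CPM against 21.9 and 19.4 (-0.92 ± 0.29; edgeR adjusted p = 0.14). Por and Alas1, targets of the PAR bZIP factors in drug and haem metabolism, had log2 differences of 0.998 and 0.94. For Alas1 the ZT6 libraries disagreed, at 52.8 and 155 CPM. Bhlhe40, Csnk1d, Tspan4 and Leo1 had log2 differences of -0.00, 0.02, -0.43 and -1.14.

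**Figure D2:**
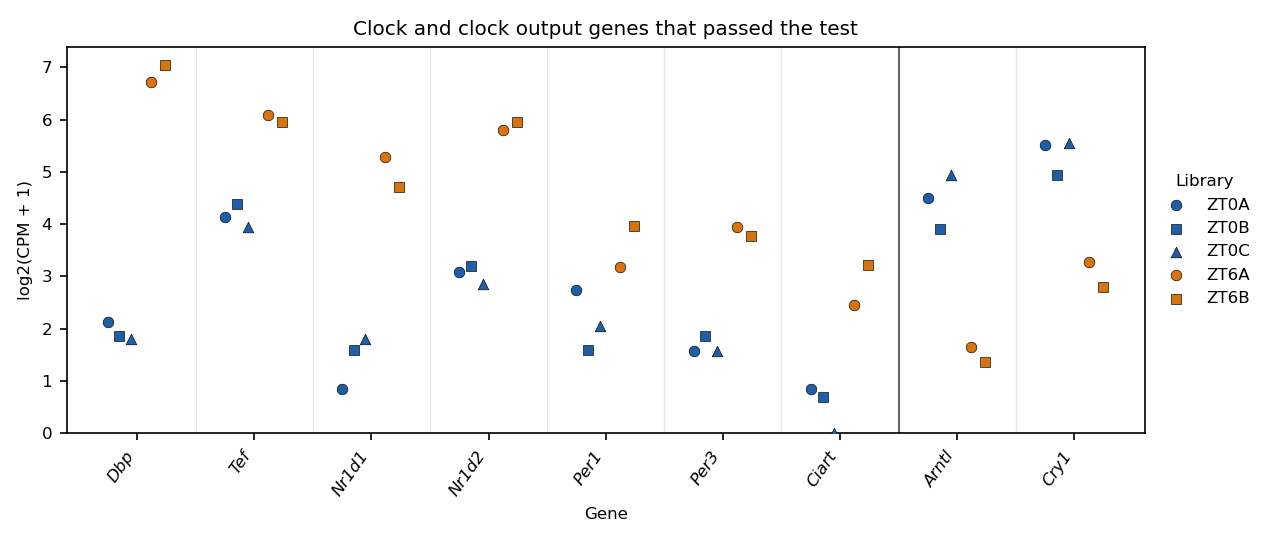
Clock and clock output genes that passed the test, 9 of 10, on a log2(CPM + 1) scale, 1 point per library (blue ZT0, orange ZT6). The 7 genes left of the line were higher in both ZT6 libraries than in all 3 ZT0 libraries, and Arntl and Cry1 were lower.

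Of the 10 clock genes that passed, 6 also passed with each of the 5 libraries left out in turn: Dbp, Tef, Nr1d1, Nr1d2, Per3 and Arntl. Per1 passed in 1 of those 5 fits, with an edgeR adjusted p of up to 0.581. With ZT0B as the only ZT0 library, Ciart was lost (edgeR adjusted p = 0.0833) and Usp2 passed (edgeR adjusted p = 0.0322).

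Promoter windows of the clock genes that passed are shown because these genes are the textbook targets of E-box and RORE sites. RefSeq gave windows from 250 bases before to 50 bases after a start (build GRCm38.p6) for 9 of the 10. For this, 6 motifs were searched on both strands: E-box CACGTG, D-box TTANNTAA, RORE TAGGTCA or TGGGTCA, heat shock element GAANNTTC, cAMP response element TGACGTCA and the glucocorticoid response element, an inverted repeat. An E-box was found for 4 of the 9 genes (Ciart, Cry1, Per1 and Tef), beside 12.55% of the 6899 tested genes with a window and 8.09% of all 27025 genes with one. A RORE was found for Arntl alone (11.11%, beside 6.73% of tested genes), and a D-box for Per3 and Tef (22.22% beside 4.8%). No match shown overlapped a match of another of these motifs. A gene counted as holding a motif if any of its windows did. Another RefSeq window of Per1 held no E-box, and another of Arntl held no RORE. A match says only that the letters are present. Capitals mark the E-box in the first 4 windows and the RORE in the last.
Ciart chr3:95882179-95882478 minus strand: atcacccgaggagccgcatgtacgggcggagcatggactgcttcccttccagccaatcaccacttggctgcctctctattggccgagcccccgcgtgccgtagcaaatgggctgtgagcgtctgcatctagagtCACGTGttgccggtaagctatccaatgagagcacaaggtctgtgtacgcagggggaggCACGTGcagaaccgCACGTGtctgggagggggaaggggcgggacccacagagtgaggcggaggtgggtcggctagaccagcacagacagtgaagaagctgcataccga
Per1 chr11:69098699-69098998 plus strand: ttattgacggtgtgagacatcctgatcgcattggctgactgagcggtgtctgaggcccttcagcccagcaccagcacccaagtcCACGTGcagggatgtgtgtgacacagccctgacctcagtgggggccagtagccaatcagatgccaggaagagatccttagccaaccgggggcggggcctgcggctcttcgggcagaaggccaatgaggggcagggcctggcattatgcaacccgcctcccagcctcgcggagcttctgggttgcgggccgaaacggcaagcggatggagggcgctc
Tef chr15:81811164-81811463 plus strand: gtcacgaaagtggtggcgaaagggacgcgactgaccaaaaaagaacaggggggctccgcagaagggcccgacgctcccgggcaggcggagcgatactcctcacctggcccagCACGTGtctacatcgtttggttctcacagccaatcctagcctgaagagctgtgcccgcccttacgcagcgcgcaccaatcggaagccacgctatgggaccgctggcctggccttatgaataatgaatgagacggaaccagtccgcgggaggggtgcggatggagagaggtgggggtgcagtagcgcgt
Cry1 chr10:85185005-85185304 minus strand: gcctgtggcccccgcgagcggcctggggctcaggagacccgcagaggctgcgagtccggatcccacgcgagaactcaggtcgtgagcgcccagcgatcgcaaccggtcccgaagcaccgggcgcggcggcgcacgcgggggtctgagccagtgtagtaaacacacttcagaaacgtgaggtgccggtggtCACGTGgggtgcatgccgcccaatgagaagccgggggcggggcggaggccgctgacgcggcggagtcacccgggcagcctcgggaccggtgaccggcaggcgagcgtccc
Arntl chr7:113207261-113207560 plus strand: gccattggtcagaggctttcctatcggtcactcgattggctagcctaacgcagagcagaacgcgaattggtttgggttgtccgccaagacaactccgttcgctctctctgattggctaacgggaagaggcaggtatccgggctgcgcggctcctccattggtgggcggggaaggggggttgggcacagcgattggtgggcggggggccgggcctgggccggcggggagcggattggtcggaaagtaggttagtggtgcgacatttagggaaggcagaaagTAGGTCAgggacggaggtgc
In the Ciart window the E-boxes began 116, 58 and 44 bases before the start, and in the Cry1 window 60 bases before it. Ciart rose and Cry1 fell, so genes with the same letters near the start moved in opposite directions. The Arntl RORE began 30 bases after the start of the window's transcript, and Arntl was the gene of the list with the largest decrease.

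Some molecular chaperones fell at ZT6, while most did not pass the test. These proteins fold newly made or damaged proteins, in the cytosol and mitochondria (heat shock proteins) or in the endoplasmic reticulum (ER), where secreted proteins such as albumin are made. Of 21 tested heat shock chaperones 4 passed, all lower, and of 25 ER folding and stress genes 1 was higher and 4 were lower, beside 1.16% of all genes either way. The log2 difference was negative for 19 of the 21 and for 23 of the 25, with medians of -0.71 and -0.95, beside -0.02 over all genes. With ZT0B as the only ZT0 library these medians were -0.28 and -0.54, and 2 of the 46 genes passed, Hsp90aa1 and Hsph1.

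Hsp90aa1, the inducible cytosolic HSP90, measured 368, 255 and 301 CPM at ZT0 and 85.1 and 79.2 at ZT6. It fell by 1.90 ± 0.25 (edgeR adjusted p = 0.000588), and it passed with each of the 5 libraries left out. Hsph1, a large HSP70 relative that exchanges nucleotide on HSP70, measured 74.2, 37.97 and 62.3 CPM against 16.1 and 11.5 and fell by 2.05 ± 0.30 (edgeR adjusted p = 0.00168). Hspb1, a small heat shock protein, fell by 1.87 ± 0.42 from 15.2, 15.8 and 28.4 CPM to 5.03 and 5.94, and Hspa4l fell by 0.95 ± 0.21 from 29.2, 29.6 and 30.02 CPM to 15.5 and 15.04 (edgeR adjusted p = 0.0494 and 0.0395). Against ZT0B alone Hspb1 and Hspa4l did not pass (log2 difference -1.55 and -0.95; edgeR adjusted p = 0.237 and 0.204). ZT0C was the highest library for Hspb1, while the ZT0 values of Hspa4l were nearly equal.

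The abundant constitutive chaperones did not pass. Hspa8, the constitutive HSP70, measured 649.9, 636 and 695 CPM at ZT0 and 745 and 747 at ZT6, a log2 difference of 0.18 ± 0.25 (edgeR adjusted p = 0.804). Hsp90ab1, the constitutive HSP90, measured 586, 925 and 999 CPM against 685 and 712 (-0.26 ± 0.30; edgeR adjusted p = 0.748), with the ZT6 values inside the ZT0 range. Whether these differences differ from that of Hsp90aa1 was not tested.

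In the ER, Hspa5, the HSP70 known as BiP, measured 1221, 660.4 and 1001 CPM at ZT0 and 308 and 269.9 at ZT6. It fell by 1.73 ± 0.30 (edgeR adjusted p = 0.00877). ZT0B was the lowest of the ZT0 libraries, and against it alone the log2 difference was -1.19 (edgeR adjusted p = 0.14). Manf, an ER stress protein that binds BiP, measured 306, 114 and 160.0 CPM against 61.3 and 47.9 and fell by 1.82 ± 0.35 (edgeR adjusted p = 0.024). Its value against ZT0B alone was -1.06 (edgeR adjusted p = 0.144). Sdf2l1, which works with BiP, measured 100.4, 52.7 and 94.3 CPM against 23.4 and 14.6 and fell by 2.08 ± 0.39 (edgeR adjusted p = 0.024). Pdia3, a protein disulphide isomerase, fell by 1.03 ± 0.24 from 213, 213 and 258 CPM to 119 and 104 (edgeR adjusted p = 0.0494). Against ZT0B alone Sdf2l1 and Pdia3 did not pass (log2 difference -1.43 and -0.93; edgeR adjusted p = 0.219 and 0.293). ZT0A was the highest library for Hspa5, Manf and Sdf2l1, and ZT0C for Pdia3.

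Trib3, a pseudokinase induced by ER and amino acid stress, was the 1 ER stress gene to rise. It had 5, 9 and 19 UMIs at ZT0 and 65 and 20 at ZT6, a log2 difference of 2.48 ± 0.54 (edgeR adjusted p = 0.0494), and passed in 1 of the 5 fits that leave out a library and not against ZT0B alone (edgeR adjusted p = 0.132). The most abundant ER chaperones that did not pass were Hsp90b1, with 937, 756 and 1018 CPM against 466 and 439 (log2 difference -0.997), and Calr, with 774, 935 and 1079.6 against 566 and 437 (-0.89). For both genes the ZT6 libraries lay below all ZT0 libraries. Of 36 genes of secretory translocation and vesicle transport, 32 had a negative difference, with a median of -0.45. None of the 36 passed by edgeR, and 10 had an unadjusted p under 0.05, beside 13.4% of all genes. DESeq2 called 1 (Rpn1) and limma-voom called 0.

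**Figure D3:**
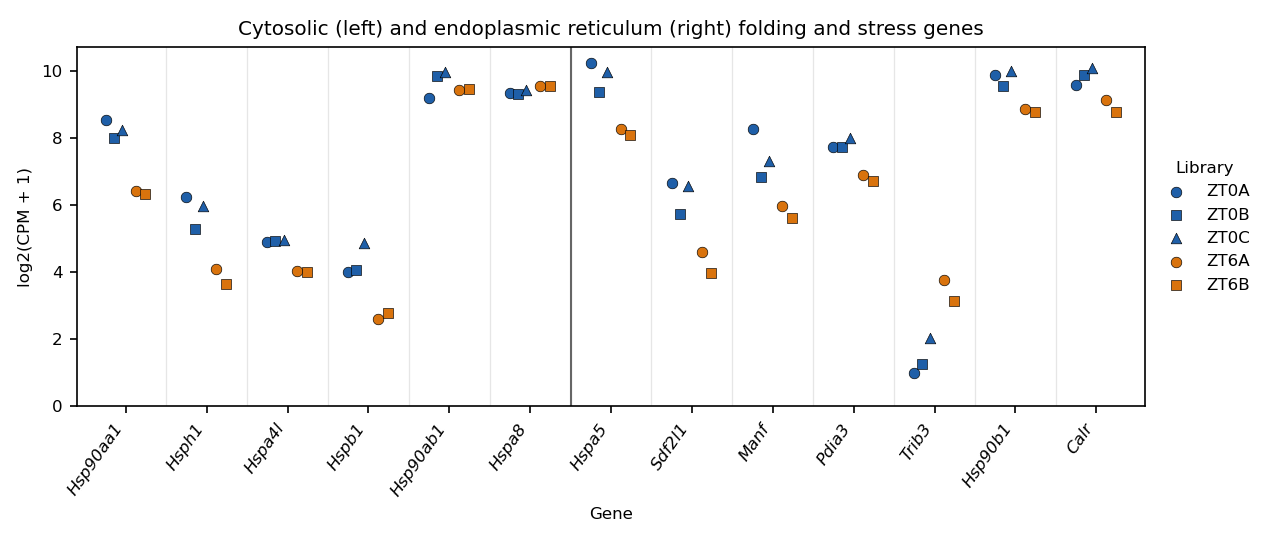
Chaperones and ER stress genes on a log2(CPM + 1) scale, 1 point per library (blue ZT0, orange ZT6). Left of the line, the ZT6 points of Hsp90aa1, Hsph1, Hspa4l and Hspb1 lie below all ZT0 points while those of Hsp90ab1 and Hspa8 do not, and right of it Trib3 is the gene with higher ZT6 points.

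Of the 9 folding and stress genes that passed, 7 had a RefSeq promoter window, and 2 of these (28.57%), Hspb1 and Hsph1, held the heat shock element letters, beside 7.09% of tested genes. The Hspb1 window is shown because it held them in 2 places, in capitals, which began 117 and 97 bases before the start.
Hspb1 chr5:135887669-135887968 plus strand: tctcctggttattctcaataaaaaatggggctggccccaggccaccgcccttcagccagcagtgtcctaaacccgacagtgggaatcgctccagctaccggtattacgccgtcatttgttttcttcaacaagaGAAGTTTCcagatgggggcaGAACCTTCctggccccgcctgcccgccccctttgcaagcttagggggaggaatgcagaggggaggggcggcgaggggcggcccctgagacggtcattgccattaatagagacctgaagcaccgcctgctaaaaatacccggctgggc
The match in the Hsph1 windows lay after the start, 41 or 20 bases from it for the 2 starts RefSeq gives.

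Some of the largest changes were in genes of choline metabolism. Phosphatidylcholine, the main membrane lipid and a coat lipid of lipoproteins, is made from choline in steps that begin with choline kinase. Of 17 tested genes of its synthesis and transport, 2 were higher at ZT6 and 1 was lower, beside 1.16% of all genes either way. Chka, which encodes choline kinase alpha, measured 117, 234 and 179 CPM at ZT0 and 23.03 and 19.8 at ZT6. It fell by 3.03 ± 0.37, or 8.19-fold (edgeR adjusted p = 0.000635), the largest decrease among genes that passed and averaged at least 20 CPM. ZT0B was the highest library, and Chka passed with each of the 5 libraries left out. Gpcpd1, which frees glycerophosphate and choline from glycerophosphocholine, rose by 2.21 ± 0.41 from 23.9, 31.8 and 34.6 CPM to 115 and 165 (edgeR adjusted p = 0.0367). It passed in 0 of the 5 fits that leave out a library, with an adjusted p of up to 0.332, and not against ZT0B alone (log2 difference 2.13; edgeR adjusted p = 0.579). Mfsd2a, a carrier of lysophosphatidylcholine, measured 6.91, 2.32 and 3.30 CPM at ZT0 and 11.8 and 24.5 at ZT6, with ZT6B above ZT6A, and rose by 2.10 ± 0.43 (edgeR adjusted p = 0.0396).

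The pair of sterol export genes rose. Abcg5 and Abcg8 encode the 2 subunits of the transporter that secretes cholesterol into bile, and they were the 2 of 14 sterol sensing genes that passed, beside 1.16% of all genes. Abcg5 measured 11.6, 11.8 and 12.4 CPM at ZT0 and 39.7 and 37.995 at ZT6. Both groups were tight, and Abcg5 rose by 1.70 ± 0.21 (edgeR adjusted p = 0.000454), with each of the 5 libraries left out as well. Abcg8 measured 17.6, 23.4 and 31.2 CPM against 63.1 and 57.4 and rose by 1.32 ± 0.24 (edgeR adjusted p = 0.013).

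The start sites of this pair lie head to head on chromosome 17, with 109 bases between them, in the windows RefSeq gives for Abcg5 and for the nearer of its 2 Abcg8 starts. The stretch is shown because both genes rose together. Capitals mark the bases between the first base of Abcg5, on the minus strand, and that of Abcg8, on the plus strand.
Abcg8 chr17:84682871-84683170 plus strand: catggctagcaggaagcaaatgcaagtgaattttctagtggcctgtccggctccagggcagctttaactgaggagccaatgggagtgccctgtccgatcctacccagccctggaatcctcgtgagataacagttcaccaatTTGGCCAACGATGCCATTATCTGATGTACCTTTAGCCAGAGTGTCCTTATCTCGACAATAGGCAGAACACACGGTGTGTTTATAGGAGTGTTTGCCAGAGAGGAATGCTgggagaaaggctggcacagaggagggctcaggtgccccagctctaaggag

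Most cholesterol synthesis genes had lower values at ZT6 that did not pass. Of 20 tested, 1 passed (1.16% of all genes did), Idi1, an isomerase of the isoprenoid steps, which fell by 1.12 ± 0.23 from 177, 229 and 192 CPM to 86.9 and 97.4 (edgeR adjusted p = 0.03). The log2 difference was negative for 19 of the 20, with a median of -0.47, and with ZT0B as the only ZT0 library the median was -0.91 and 4 passed. Hmgcs1, an early enzyme of the pathway, measured 233, 484 and 331 CPM at ZT0 and 203 and 231 at ZT6, with ZT0B at the top of a broad ZT0 range (-0.69 ± 0.28; edgeR adjusted p = 0.29). The sterol sensors Insig1 and Insig2 measured 534, 607 and 682 CPM and 495, 502 and 643 CPM at ZT0. At ZT6 they measured 265 and 287 CPM and 265 and 311 CPM, log2 differences of -1.14 and -0.93 that did not pass (edgeR adjusted p = 0.123 and 0.116).

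Fatty acid synthesis genes did not pass. Of 18 tested, 0 passed by edgeR, and 5 had an unadjusted p under 0.05, beside 13.4% of all genes. DESeq2 called 2 (Acly and Elovl3) and limma-voom called 1. Acly, which makes cytosolic acetyl-CoA, came nearest among those described here, with 433, 626 and 429 CPM at ZT0 and 223 and 222 at ZT6 (-1.16 ± 0.29; edgeR adjusted p = 0.0607). Fasn, fatty acid synthase, measured 317, 531 and 272 CPM against 215 and 179 (-0.92 ± 0.31; edgeR adjusted p = 0.172). ZT0B was the highest library for both, and against ZT0B alone Acly passed (edgeR adjusted p = 0.0493).

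In the lists of fatty acid oxidation, fasting response, autophagy, triglyceride and bile acid genes, 1 or 2 genes each passed, beside 1.16% of all genes. Ppara, the nuclear receptor that drives fatty acid oxidation, measured 22.3, 35.6 and 31.5 CPM at ZT0 and 60.96 and 56.99 at ZT6 and rose by 0.98 ± 0.23 (edgeR adjusted p = 0.0495). It was the 1 gene of 30 on the list of fatty acid oxidation, ketogenesis and PPARα targets that passed. Ppargc1a, which encodes the coactivator PGC-1α, rose by 1.03 ± 0.24 from 9.47, 12.7 and 7.92 CPM to 21.7 and 19.4, and Ppargc1b, its relative, by 1.86 ± 0.42 from 3.16, 4.65 and 5.11 CPM to 15.3 and 16.6 (edgeR adjusted p = 0.0494 and 0.0494). Trib1, a pseudokinase that lowers lipogenesis, rose by 0.93 ± 0.22 from 54.3, 79.97 and 52.3 CPM to 119.6 and 118 (edgeR adjusted p = 0.0494). Ppargc1a and Trib1 were the 2 of 17 insulin, FOXO and fasting genes that passed. Ulk1, the kinase that starts autophagy, rose by 1.07 ± 0.23 from 23.7, 35.2 and 29.03 CPM to 70.8 and 52.2 (edgeR adjusted p = 0.0359), the 1 gene of 22 autophagy genes to pass. Lpin2, a phosphatidic acid phosphatase, rose by 1.10 ± 0.24 from 83.1, 121 and 106 CPM to 201 and 242 (edgeR adjusted p = 0.0396). Plin5, a lipid droplet protein, fell by 1.14 ± 0.24 from 31.4, 24.95 and 32.3 CPM to 11.998 and 15.04 (edgeR adjusted p = 0.0276). These were the 2 of 19 genes of triglyceride synthesis, storage and lipolysis that passed. Klb, a coreceptor for hormone-like fibroblast growth factors, rose by 1.51 ± 0.29 from 3.95, 8.52 and 5.44 CPM to 17.8 and 16.6 (edgeR adjusted p = 0.0173), the 1 of 22 bile acid genes to pass. Ppargc1b is in none of these lists. Most of these calls were at the margin. Against ZT0B alone none of these 8 genes passed, with an edgeR adjusted p of 0.3 for Klb, 0.31 for Plin5, 0.396 for Ppargc1b, 0.463 for Ulk1, 0.467 for Lpin2, 0.521 for Ppara, 0.602 for Ppargc1a and 0.68 for Trib1. Of the 5 fits that leave out a library, Ppargc1b passed in 0 (edgeR adjusted p of up to 0.376), Ppara, Ppargc1a, Trib1, Ulk1 and Lpin2 in 1 each, Plin5 in 2 and Klb in 3.

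In glucose and glycogen metabolism 3 genes passed, all of them lower at ZT6. Ppp1r3b, which targets protein phosphatase 1 to glycogen and so promotes glycogen synthesis, measured 62.3, 69.6 and 42.2 CPM at ZT0 and 10.8 and 9.10 at ZT6. It fell by 2.52 ± 0.37, or 5.74-fold (edgeR adjusted p = 0.0033), the 1 of 14 glycogen genes that passed, beside 1.16% of all genes. Its relative Ppp1r3c measured 154, 149 and 117 CPM against 53.4 and 19.8, with a wide gap between the ZT6 libraries, and did not pass (-1.90 ± 0.77; edgeR adjusted p = 0.351). Ppp1r3g, another such subunit, was higher at ZT6, with 7.50, 15.03 and 18.97 CPM against 35.99 and 66.5, and did not pass either (1.86 ± 0.55; edgeR adjusted p = 0.186). Pfkfb1, a liver enzyme that sets the level of an activator of glycolysis, fell by 1.57 ± 0.32 from 16.4, 14.4 and 15.7 CPM to 3.87 and 7.12, and the lactate carrier Slc16a1 by 1.03 ± 0.23 from 59.6, 44.8 and 61.7 CPM to 28.1 and 26.1 (edgeR adjusted p = 0.024 and 0.0407). They were the 2 of 24 genes of gluconeogenesis and glycolysis that passed, beside the same 1.16%. Against ZT0B alone neither passed (log2 difference -1.48 and -0.72; edgeR adjusted p = 0.123 and 0.493). Pck1, the key enzyme of gluconeogenesis, measured 1094, 776 and 991 CPM at ZT0 and 1792 and 1419.7 at ZT6, higher in both ZT6 libraries but not past the test (0.75 ± 0.29; edgeR adjusted p = 0.26).

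**Figure D4:**
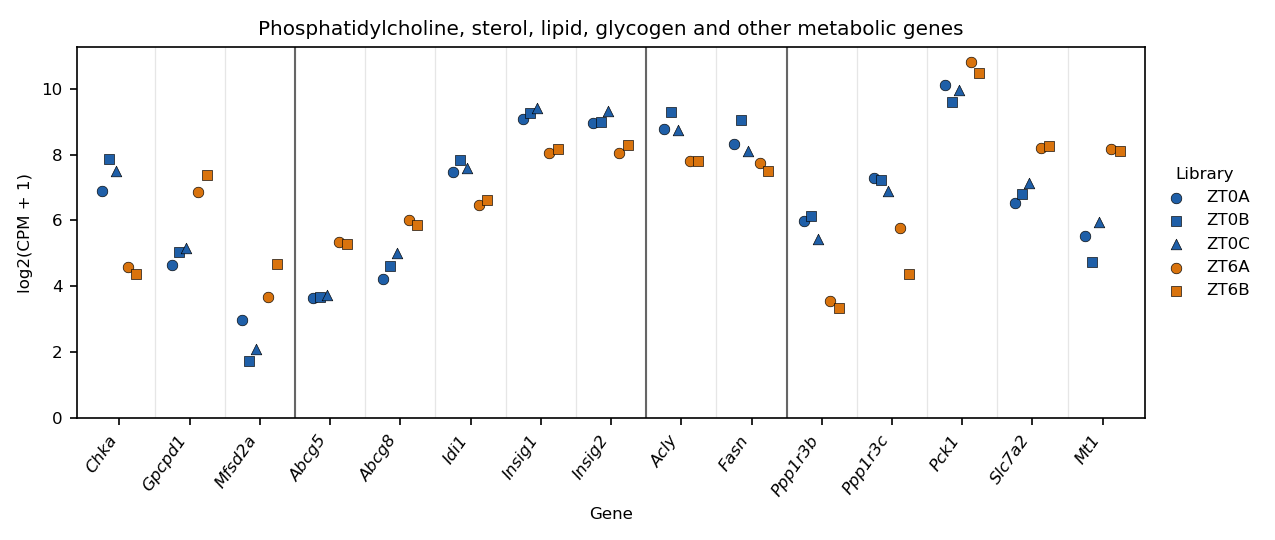
Genes of phosphatidylcholine, sterols, fatty acid synthesis and, right of the last line, glucose, glycogen, amino acid and metal handling, on a log2(CPM + 1) scale with 1 point per library (blue ZT0, orange ZT6). Chka and Ppp1r3b lie lower in both ZT6 libraries, and Gpcpd1, Abcg5, Abcg8, Slc7a2 and Mt1 higher.

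Mt1 encodes a metallothionein, a metal-binding protein induced by zinc and by glucocorticoids. It measured 44.8, 25.9 and 60.7 CPM at ZT0 and 288 and 277 at ZT6, and rose by 2.69 ± 0.46, or 6.45-fold (edgeR adjusted p = 0.024). Without ZT0A, without ZT6A, without ZT6B or against ZT0B alone (3.45; edgeR adjusted p = 0.0987), it did not pass. Mt2, its neighbour and close relative, measured 5.92, 3.87 and 15.7 CPM against 58.1 and 45.1 and did not pass (2.60 ± 0.61; edgeR adjusted p = 0.11). Among the 22 of the 30 largest changes with a RefSeq window, the glucocorticoid response element letters were found for Mt1 alone (4.55%, beside 0.35% of tested genes). The match, in capitals, began 94 bases before the start.
Mt1 chr8:94178839-94179138 plus strand: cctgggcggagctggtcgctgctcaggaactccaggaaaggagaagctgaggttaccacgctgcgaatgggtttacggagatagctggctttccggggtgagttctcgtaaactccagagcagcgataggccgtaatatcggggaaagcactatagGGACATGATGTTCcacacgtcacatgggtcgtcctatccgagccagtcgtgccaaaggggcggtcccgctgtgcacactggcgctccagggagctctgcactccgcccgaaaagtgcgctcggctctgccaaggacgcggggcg
Of 15 glucocorticoid induced genes tested, Mt1 was the 1 that rose, and Cdkn1a, the cell cycle inhibitor p21, was the 1 that fell, beside 1.16% of all genes either way. Cdkn1a had 139, 105 and 108 UMIs at ZT0 and 6 and 1 at ZT6, or 27.4, 16.3 and 17.8 CPM against 1.16 and 0.396. It fell by 4.47 ± 0.56 (edgeR adjusted p = 0.000651), the largest decrease of all genes tested, and passed with each of the 5 libraries left out.

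Of 8 tested tubulins, the subunits of microtubules, 2 passed, both lower, beside 1.16% of all genes, and 6 did not. All 8 had a negative log2 difference, with a median of -0.91. Tubb2a measured 138, 136 and 156 CPM at ZT0 and 41.99 and 37.995 at ZT6. The groups were tight, and Tubb2a fell by 1.84 ± 0.21 (edgeR adjusted p = 0.000157), with each of the 5 libraries left out as well. Tuba4a fell by 1.02 ± 0.23 from 134, 162 and 162 CPM to 79.9 and 70.4 (edgeR adjusted p = 0.0476), and did not pass against ZT0B alone (-1.11; edgeR adjusted p = 0.121).

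The rest of the 30 largest changes belong to no single process. Slc7a2, a carrier of arginine and other cationic amino acids, rose by 1.38 ± 0.25 from 91.2, 111 and 139 CPM to 291 and 302 (edgeR adjusted p = 0.0114), the 1 of 41 urea cycle and amino acid genes to pass, a share near the 1.16% of all genes. Fbxo21, an F-box protein of a ubiquitin ligase, rose by 1.48 ± 0.24 from 24.3, 26.5 and 40.1 CPM to 88.6 and 80.7 (edgeR adjusted p = 0.00358). Slc25a47, a mitochondrial carrier found mainly in liver, measured 298, 389.9 and 317 CPM at ZT0 and 752 and 692 at ZT6. Upp2, which breaks down uridine, measured 134, 115 and 88.1 CPM against 249 and 249. These rose by 1.11 ± 0.24 and 1.15 ± 0.27 (edgeR adjusted p = 0.0359 and 0.0494). The kinase gene Pim3 rose by 1.48, Coq10b, for a coenzyme Q binding protein, by 1.30, the cAMP phosphodiesterase gene Pde4b by 1.26 and Jade1, for a histone acetylation factor, by 1.10. Against ZT0B alone Slc7a2, Slc25a47, Upp2, Pim3 and Pde4b did not pass (edgeR adjusted p = 0.0833, 0.447, 0.31, 0.0987 and 0.303).

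On the lower side, Pnrc1, a nuclear receptor coactivator, measured 172, 124 and 169 CPM at ZT0 and 42.8 and 41.95 at ZT6 and fell by 1.87 ± 0.31 (edgeR adjusted p = 0.0062). Hist1h1c, a linker histone, measured 119, 88.8 and 136 CPM against 44.9 and 25.3 and fell by 1.69 ± 0.29 (edgeR adjusted p = 0.00663). Clpx, a mitochondrial unfoldase, fell by 1.26 ± 0.24 from 198, 231 and 246 CPM to 103 and 84.7, and Mal2, a membrane traffic protein, by 1.33 ± 0.29 from 107, 88.6 and 80.98 CPM to 38.7 and 34.4 (edgeR adjusted p = 0.0149 and 0.039). Ypel2 and Mettl20 fell by 1.26 and 1.24. Against ZT0B alone Pnrc1, Hist1h1c, Mal2 and Ypel2 did not pass (edgeR adjusted p = 0.0923, 0.095, 0.202 and 0.159). Of all 30 genes, 7 passed with each of the 5 libraries left out (Dbp, Nr1d2, Tef, Abcg5, Chka, Hsp90aa1 and Tubb2a), and 16 passed with ZT0B as the only ZT0 library.

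Immediate early genes, which respond within minutes to stress and growth signals, varied widely among the ZT0 libraries. Egr1 measured 48.9, 106 and 285 CPM at ZT0 and 207 and 187 at ZT6 (0.43 ± 0.68; edgeR adjusted p = 0.836). Junb measured 21.1, 60.1 and 139 CPM against 136 and 182 (1.11 ± 0.72; edgeR adjusted p = 0.559). Fos measured 16.2, 35.95 and 63.7 CPM against 124 and 71.2 (1.34 ± 0.44; edgeR adjusted p = 0.207). For these genes ZT0A was the lowest library and ZT0C the highest of the ZT0 group, and the ZT6 values of Egr1 lay within that range. Of 17 genes tested, 16 had a positive difference, with a median of 0.90. None passed by edgeR, and 10 had an unadjusted p under 0.05, beside 13.4% of all genes. DESeq2 called 2 (Fos and Nr4a1) and limma-voom called 1.

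Major urinary proteins, the abundant secreted pheromone carriers of the Mup gene cluster, split the ZT0 libraries. Mup20 measured 21759, 3165 and 6903 CPM at ZT0 and 3882 and 5094 at ZT6, and Mup11 2619, 76.7 and 2828 CPM against 178 and 247. Mup3 measured 17416, 8424 and 11756 CPM against 9387 and 11263. All 21 tested had a negative log2 difference, with a median of -2.42, yet with ZT0B as the only ZT0 library the median was 0.69. None passed by edgeR, 1 had an unadjusted p under 0.05, and DESeq2 and limma-voom called 0. Many genes of this cluster are near-identical copies, while Mup3 and Mup20 are more divergent, and how reads shared among them were counted is not given in the sources used here, so the split among the near-identical members is uncertain.

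Cytosolic ribosomal protein genes differed between libraries in the same manner. The median log2(CPM + 1) of the 81 tested was 9.27, 10.00 and 9.24 in the ZT0 libraries and 9.75 and 9.84 at ZT6, so the ZT6 libraries lay between ZT0B and the other ZT0 libraries. Their median log2 difference was 0.25, and -0.14 with ZT0B as the only ZT0 library. None passed by edgeR, 1 had an unadjusted p under 0.05, and DESeq2 and limma-voom called 0. In all, 16 of the gene lists, with 486 tested genes, had no gene past the edgeR threshold, among them xenobiotic cytochrome P450s, phase II enzymes, acute phase and coagulation proteins, proteasome subunits and the respiratory chain. In these 16 lists 54 of the 486 genes had an unadjusted p under 0.05, beside 13.4% of all genes. DESeq2 called 8 of the 486, beside 155 of all 8908 genes, and limma-voom called 2, beside 66.

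**Figure D5:**
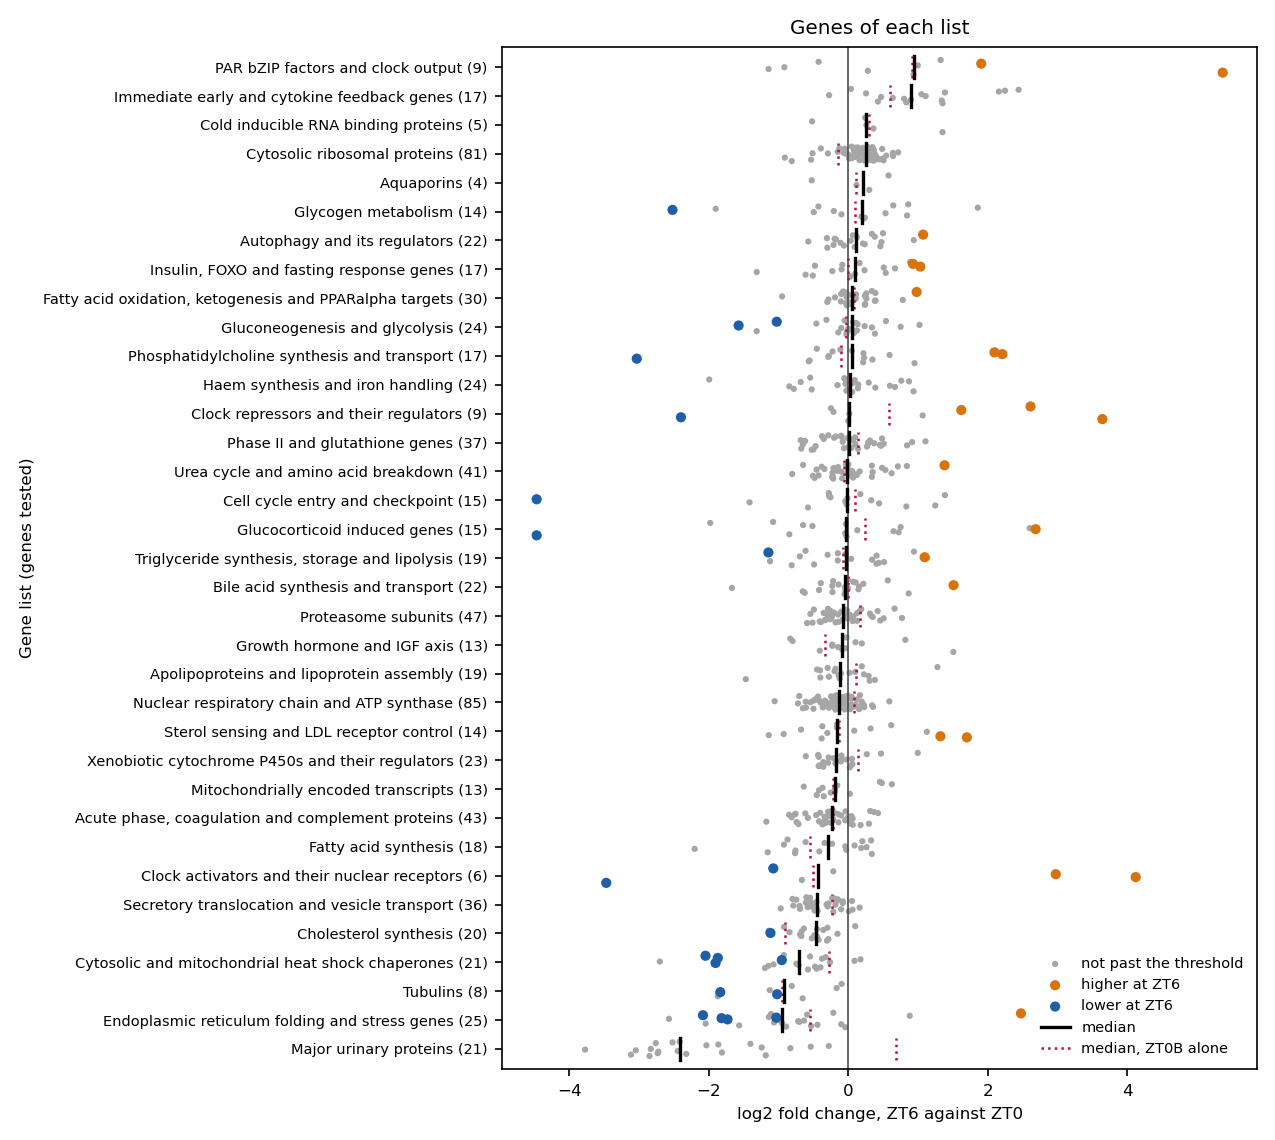
The log2 fold change at ZT6 against ZT0 of every tested gene of 35 lists, 1 point per gene (height within a list has no meaning), coloured where the gene passed the test. Black bars give list medians and dotted bars the medians with ZT0B as the only ZT0 library. The median of the Mup genes changes from -2.42 to 0.69, and those of the ER, heat shock and tubulin lists stay below 0.

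Hepatocytes near a portal vein differ from those near a central vein, so the change was also compared between zones. The cells of each library were ordered by 8 periportal and 8 pericentral landmark genes, the order was cut into 3 equal parts, and the pericentral and periportal ends were summed. None of 8909 genes changed differently between these ends by edgeR's adjusted p. Without adjustment 417 (4.68%) had a p under 0.05, and limma-voom called 0. Dbp measured 2.36, 2.08 and 1.32 CPM at ZT0 and 89.7 and 117 at ZT6 at the pericentral end. At the periportal end it measured 3.13, 3.005 and 4.03 CPM against 129 and 155. Dbp was higher at ZT6 in both zones, and the zones' log2 changes differed by -0.33 ± 0.48 (periportal minus pericentral), which did not pass. Nr1d2, Tubb2a and Abcg5 also moved the same way at both ends, with zone differences of 0.07 ± 0.34, 0.12 ± 0.24 and 0.82 ± 0.33, none of which passed.

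Tef, Upp2 and Cyp7a1 had zone differences that did not pass either. Upp2 measured 164, 118 and 71.1 CPM at ZT0 and 190.3 and 182 at ZT6 at the pericentral end, and 122, 104 and 96.0 against 293 and 313 at the periportal end. The periportal groups were apart and the pericentral ones closer, a difference in log2 change of 0.77 ± 0.19 (edgeR adjusted p = 0.635). Tef differed by 1.03 ± 0.27 (edgeR adjusted p = 0.635). Cyp7a1, the rate-limiting enzyme of bile acid synthesis, measured 4.17, 0.501 and 6.33 CPM at ZT0 and 7.70 and 26.9 at ZT6 at the periportal end, and 194, 86.5 and 103 against 84.9 and 109.6 at the pericentral end, where its level was higher. Its log2 change differed by 2.44 ± 0.58 (edgeR adjusted p = 0.635). The periportal levels of Cyp7a1 at ZT0 rest on few molecules, so the size of this difference is uncertain. Cyp7a1 passed with the order cut into 4 parts, without ZT0C and without ZT6A, and Upp2 passed without ZT0C.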

How the data were processed

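UMI counts per gene and cell were deposited by the authors as text tables, 1 per library, with 14812 gene entries. The submitters' processing notes name Cell Ranger and the builds mm10 and hg19, with no version or role. How cells were filtered and how reads shared by gene copies were counted is not given in the sources used here. The 3 ZT0 and 2 ZT6 libraries hold 10595 of the series' 18378 cells, and all were used, with no doublet caller. Entry names were matched to GENCODE (14321) or RefSeq (15) symbols, 476 matched neither and 1 name was repeated.

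Deposited counts were summed per library. Among libraries of the same time, ZT0 or ZT6, none was a copy of another (chi-square per degree of freedom of 5.66 to 63.6). Pairs of a ZT0 and a ZT6 library were not checked in this way. In R 4.3.3, edgeR 4.0.16 (TMM, glmQLFit with robust estimation, glmQLFTest) was fitted to all 10 libraries with 1 mean per time, on genes averaging 3 CPM or more. The p-values were adjusted by Benjamini-Hochberg over 8908 genes, with a threshold of 0.05. CPM are scaled by TMM, except the summed levels of cell type markers and zone landmarks, which use library totals alone. A standard error is the log2 fold change, without its sign, over the root of its F statistic. Before TMM scaling, a count of 3 UMIs equals 0.446 to 0.524 CPM at ZT0, and 0.610 and 1.16 CPM in ZT6A and ZT6B, for counting error only. Some levels given here rest on fewer UMIs, such as that of Cdkn1a in ZT6B (1 UMI). For zones, cells were ordered by landmark z-scores and sums over both ends of the order, cut into 3 parts, were tested with each library as a block. The fits were tested on simulated data. DESeq2 1.42.0 and limma 3.58.1 were among the alternatives.

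The comparison, the gene lists and the rule for named genes were chosen with earlier results of these data known. Genes were named by size (15 higher and 15 lower at a mean of at least 20 CPM), from the clock lists, and by rank within the other lists. Ppargc1b, Acly, Fasn, Ppp1r3c, Ppp1r3g, Mt2, Junb, Fos, Upp2 in zones and Cyp7a1 were chosen after their values were seen. Some genes the rule names are not reported here. Whether letters A and B pair the libraries is not settled, and the main fit did not pair them. The closing section gives a fit with the letters as a block.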

Additional observations from a re-analysis of the deposited data

How the results depend on the processing

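The count of 103 genes moved to 155 with DESeq2 (99 of the 103 among them), 66 with limma-voom, 209 with no filter on low genes, 41 with genes of at least 20 CPM, 47 with the 5 libraries alone (41 shared), 58 without both ZT18 libraries and 50 with ZT0B as the only ZT0 library. Leaving out 1 library gave 23 (without ZT6B) to 212 (without ZT0B). The cause of these shifts was not tested. Some of these fits had fewer samples or genes than the main fit. DESeq2 and limma-voom used the same libraries and 8908 genes, and the fit with no filter tested 14278 genes. Library size alone gave 104 genes, 69.2% of them higher at ZT6 against 55.3% with TMM, and moved the median of all genes from -0.02 to 0.07. With the index number as a block 135 genes passed, 72 of them among the 103. The letters A and B as a replicate block gave 223 genes. Deviations of same-letter libraries correlated at -0.124 (A) and -0.059 (B). With ZT6A and ZT6B the only ZT6 libraries, their deviations from the ZT6 mean are mirror images. These correlations therefore cannot decide whether the letters pair the libraries.

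For zones, the order cut into 4 parts gave 1 gene (Cyp7a1), and leaving out 1 library gave 0 to 2.

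No gene described here that passed changed direction in any alternative, but 0 (no filter, or without mitochondrial transcripts) to 42 (without ZT6B) of these 58 genes lost their call. Some genes that had not passed changed sign. With ZT0B as the only ZT0 library the log2 difference was 0.91 for Per2, 0.39 for Bhlhe40, 1.47 for Mup11, 0.50 for Mup20 and 0.29 for Mup3. With the index number as a block it was 0.64 for Per2, 0.47 for Bhlhe40, 1.12 for Mup11 and 0.12 for Mup20. With limma-voom Per2 was 0.068 and Bhlhe40 0.020. Bhlhe40, at -0.00, was 0.082 with library size alone, 0.012 at 20 CPM, 0.064 with the replicate block, 0.014 without the cells with most UMIs and 0.012 with cells of at most 25% mitochondrial UMIs. Csnk1d was -0.0038 with no filter. With 1 library left out, Per2 ranged from -0.62 (without ZT0B) to 0.60 (without ZT0A), Mup3 from -0.50 (without ZT0B) to 0.038 (without ZT0A), Bhlhe40 from -0.16 to 0.13, Csnk1d from -0.24 to 0.22 and Alas1 from -0.021 (without ZT6B) to 1.53 (without ZT6A).

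With 2 ZT6 libraries of 4922234 and 2588441 UMIs, genes with few UMIs in a library have folds that rest on few molecules. Among them are Ciart, Nr1d1 and Trib3 at ZT0, and Cdkn1a, Sox9, Arntl and Ppard at ZT6. Arntl had 11 and 4 UMIs in ZT6A and ZT6B, and Ppard 12 and 4.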

Other observations

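Several genes outside the lists also changed by large factors. They were named here because they passed with each of the 5 libraries left out, a set chosen after its values were seen. Ppard, which encodes the nuclear receptor PPARδ, measured 16.8, 22.2 and 18.5 CPM at ZT0 and 2.32 and 1.58 at ZT6, and fell by 3.21 ± 0.36 (edgeR adjusted p = 0.000157). Tns2, for an adhesion protein of the tensin family, rose by 1.89 ± 0.28 from 4.74, 8.06 and 7.26 CPM to 24.4 and 25.7. Gdap10 and Pcsk4 rose by 2.52 ± 0.34 and 2.74 ± 0.37 (edgeR adjusted p = 0.00223, 0.00123 and 0.000766 for these 3 genes). The level of Pcsk4 at ZT0 rested on 5, 22 and 10 UMIs.

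Sox9, a factor of bile duct cells that periportal hepatocytes also make, was named after its values were seen. It measured 36.5, 17.98 and 17.3 CPM at ZT0 and 3.87 and 0.792 at ZT6, or 20 and 2 UMIs at ZT6, and fell by 3.12 ± 0.50 (edgeR adjusted p = 0.00877). The 6 cholangiocyte markers, Sox9 among them, summed to 20.4 to 118 CPM at ZT0, highest in ZT0A, and to 5.80 to 21.3 at ZT6. Krt19 was at 0 in all 5 libraries, and Krt7, Epcam and Cldn7 had 0 to 4 UMIs in each. Spp1 had 489, 83 and 16 UMIs at ZT0 and 80 and 13 at ZT6, the most of the 6 markers in ZT0A. The part of bile duct cells in the Sox9 difference was not tested.

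At the other times of day the genes that changed by ZT6 stood as follows, as a description, since the ZT6 and ZT0 values are those that chose them. Of the 57 genes higher at ZT6, 55 had a ZT12 mean above their ZT0 mean, 21 had one above their ZT6 mean, and 56 had a ZT18 mean below their ZT6 mean. Of the 46 lower at ZT6, 44 had a ZT12 mean below their ZT0 mean, and all 46 had a ZT18 mean above their ZT6 mean. Dbp averaged 113 ± 40.5 CPM at ZT12 (SD, n = 3) and 8.58 ± 0.723 at ZT18 (SD, n = 2). Nr1d1, by contrast, averaged 31.5 ± 8.77 CPM at ZT6 and 5.75 ± 3.91 at ZT12. Mt1 averaged 397 ± 210.1 CPM at ZT12 and 7.01 ± 2.15 at ZT18, and Chka 17.2 ± 8.52 and 104 ± 17.9.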
